A study of Gallus gallus with 4 samples.

Results

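The 66 genes described here encode the proteins of the cytoplasmic ribosome in chicken, 43 of the large subunit and 23 of the small subunit, among 13009 genes that the array's annotation named with a single symbol. A gene was a member when its symbol began with RPL or RPS followed by a digit, or was RPLP0, RPLP1, RPLP2 or RPSA. The 9 symbols of ribosomal protein S6 kinases and 1 symbol of a binding protein (RPS19BP1) begin the same way and were left out. The members had 139 probe sets, short groups of probes for 1 transcript: 32 members had a single probe set and 34 had several, up to 7. The brightest probe set stood for each gene, and 65 of the 66 passed the filter on dim probe sets (42 large, 23 small). The member that did not pass was RPL3L.

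A ribosome joins a small subunit, which holds the mRNA and reads its codons, to a large subunit, which forms the peptide bonds and leads the new chain out through a tunnel. Each subunit is built in the nucleolus from ribosomal RNA and ribosomal proteins. Most of these proteins are needed in equal numbers, and their genes are known for being expressed together. In mammals their mRNAs begin with a run of pyrimidines, the terminal oligopyrimidine or TOP motif, through which mTOR signalling and LARP1 control their translation and stability. Proliferating cells devote much of their mRNA to these genes. The arrays read mRNA level only, not translation or the number of ribosomes.

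The 4 arrays came from DT40, a chicken B cell lymphoma line, in which part of the gene for Arp6 (symbol ACTR6) had been replaced by histidinol and puromycin resistance cassettes and Arp6 was supplied by a tetracycline-responsive transgene. Arp6 is an actin-related protein of the nucleus and part of SRCAP, a remodelling complex that loads H2A.Z, a variant histone, into nucleosomes. The day 0 culture had no tetracycline, so that Arp6 was on, and the cultures of days 2, 4 and 6 had tetracycline at 2 ug/ml, which shuts the transgene off. All 4 cultures carried the same disruption, transgene and resistance cassettes. With 1 array per day and no array without tetracycline after day 0, no difference between days could be tested, and Arp6 loss, tetracycline and time in culture cannot be told apart.

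Of 2 probe sets of ACTR6, the first gave signals of 7086, 4.32, 29.7 and 8.39 at days 0, 2, 4 and 6, and the second 7002, 318.1, 331.4 and 383. Both were far lower once tetracycline was present, and where their probes lie in the gene was not analysed here. All 6 B cell markers on the array lay above background on every array, with summed signals of 10250, 9412, 8914 and 6796. Single markers differed. From day 0 to day 6 CD79B went from 2051 to 370, BTK from 1167 to 71.3 and SYK from 1331 to 428.9. PAX5 went from 84.9 to 56.8, POU2AF1 from 1757 to 1567 and IRF4 from 3858 to 4302. The background at day 6 was 45.9. Of markers of other cell types, 1 of 4 for T cells (CD3D), 0 of 4 for fibroblasts, 0 of 1 for erythroid cells, 1 of 2 for myeloid cells (CSF1R) and 1 of 2 for liver (APOA1) lay above background on every array, while CD3E and CD4 were below it on all 4. In such a bulk sample, fewer cells of a type and less RNA per cell cannot be told apart. The signal near the 3′ end over that near the 5′ end was 2.07, 1.65, 1.84 and 2.22 for the actin control. That ratio was 1.37 to 1.47 for the elongation factor 1 alpha control, and 0.887 to 0.956 for the GAPDH control. The part of these differences between arrays in the results below was not tested.

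Measured as a family with the processing used here, ribosomal protein genes stood slightly above the median gene on every array with Arp6 shut off. The amount, and at day 4 also the direction, depended on the processing. Ratios are log2 of the signal over day 0, taken relative to the median ratio of all 8026 genes tested, so a shift common to most genes is not seen. Day 2 gave a member median of 0.17, day 4 of 0.16 and day 6 of 0.27, or 1.12-fold, 1.12-fold and 1.21-fold. Quantile normalization, which gives all arrays the same distribution of signals, lowered these medians to 0.018, 0.012 and 0.030, and without a filter on dim probe sets they were 0.28, -0.012 and 0.055, reversed at day 4. Above the median gene lay 62, 57 and 60 of 65 members at days 2, 4 and 6, where by construction 50% of all genes lie. The middle of the family was narrow, with lower quartiles of 0.10, 0.064 and 0.18 and upper quartiles of 0.22, 0.20 and 0.35. Over all genes tested the quartiles at day 6 were -0.41 and 0.40. Over 106 other genes as bright as the upper 90% of members they were 0.072 and 0.30, nearly as narrow as the family's. Of these 106 genes, 93.4%, 81.1% and 83% also lay above the median gene at days 2, 4 and 6. The members' shares were 95.4%, 87.7% and 92.3%.

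No member differed 2-fold from day 0 at any day. The share of all genes tested at least 2-fold higher was 2.53%, 5.77% and 8.72% at days 2, 4 and 6, and the share at least 2-fold lower was 2.88%, 5.11% and 8.31%. Because no member reached that size, log2 ratios of at least 0.32 were also counted, which are signals at least 25% higher or 20% lower than day 0. At day 2, 2 members were that much higher (RPL9 and RPS6), against a background of 17.3% of all genes, and 1 was that much lower (RPS13), against 19.5%. At day 4 the members past this size were RPL4, RPS6 and RPS13, that is 3, against 25.3%, and 0 were lower, against 26.3%. At day 6, 21 members were higher by this size, 14 of the large and 7 of the small subunit, or 32.3% of members against 28.9% of all genes. The member lower by this size at day 6 was RPS27L, 1 of 65, against 29.5% of all genes. In both directions at days 2 and 4, and for lower genes at day 6, the members' share lay below this background of all genes. Their share of higher genes at day 6 was near it. The 106 other genes as bright as the upper 90% of members also had 0 past 2-fold at each day. Of them, 5.66%, 6.6% and 22.6% were at least 25% higher at days 2, 4 and 6, and 0, 2 and 2 genes at least 20% lower. The 21 higher members at day 6 became 1 under quantile normalization, 1 without the filter and 1 relative to these 106 other genes. The members lower at day 6 became 2, 3 and 2.

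The choice of scale set whether these signals appeared higher or lower in absolute terms. The median member signal after scaling was 7504, 8517, 8499 and 9073 at days 0, 2, 4 and 6, and in the deposited values it was 8733, 8858, 8345 and 7635. After scaling, day 0 was the lowest array for 56 members and day 6 the highest for 52. Of all genes tested, 27.8% were lowest at day 0 and 30.8% highest at day 6 after scaling. In the deposited values day 6 was the lowest for 58 members and no member was lowest at day 0. There, 2 of 65 members and 1740 of 8026 genes tested were higher at day 6 than at day 0. Without scaling the members' median log2 ratio was -0.0059, -0.085 and -0.21, and that of all genes was -0.17, -0.24 and -0.48. A single factor per array moves all genes alike, so the members' distance from the median gene could hardly differ between these scales. Their position relative to other genes, not their absolute direction, is what these arrays give. Signals and orders of days described for single genes are after scaling, unless stated otherwise. The members' brightest probe sets held 6.08%, 6.71%, 6.61% and 7.01% of all signal on an array at days 0, 2, 4 and 6. No such scaling changes this share. The members' other probe sets, some of them also bright, were not counted in it, so the share of all member probe sets is higher.

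Other bright genes stood above the median gene too. There were 106 other genes as bright as the upper 90% of members (mean signal of at least 4304), and their medians were 0.14, 0.14 and 0.18 at days 2, 4 and 6. Among the 10 other genes at or above the members' median signal, 8396, the medians were 0.23, 0.24 and 0.40. All 10 lay above the median gene at each day. RPSAP58, to which RefSeq gives the synonym RPSA, is among these 10 and among the 106. RACK1, a ribosomal protein with another kind of symbol, is also among the 106. Medians over the 1172 other genes with a signal of at least 1000 were 0.058, 0.034 and 0.035, and over the 6789 dimmer genes they were -0.028, -0.012 and -0.018. Taken relative to the 106 genes, the members' medians were 0.032, 0.019 and 0.086. Only 10 of the 106 reached the members' median signal, so as a set they were dimmer than the members. The summed signal of members over that of these 106 genes was 0.772, 0.789, 0.789 and 0.823 at days 0, 2, 4 and 6. The part of probe set brightness in the family's distance from the median gene was not tested beyond these values.

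**Figure D1:**
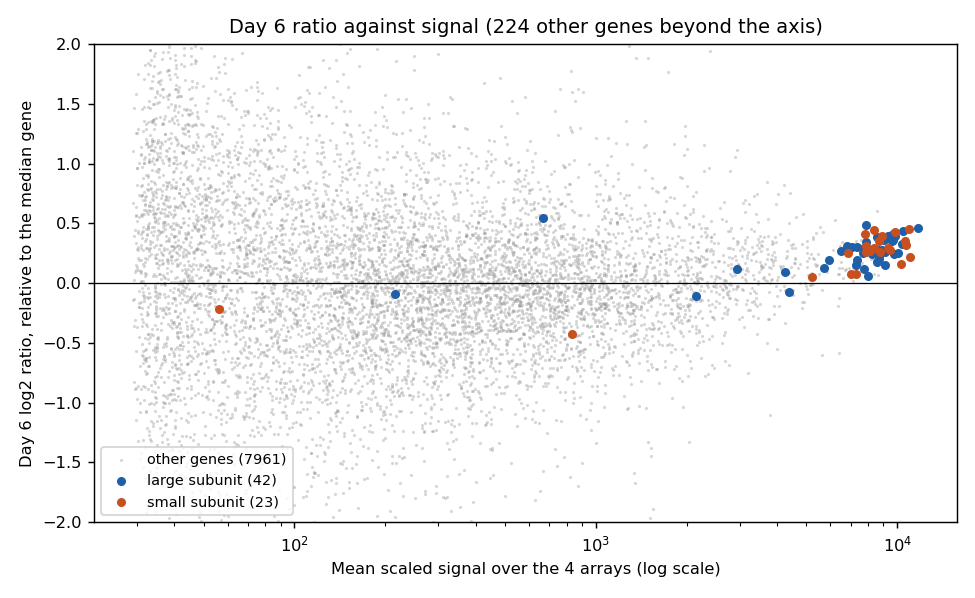
Log2 ratio of day 6 to day 0, relative to the median gene (y axis), against the mean scaled signal over the 4 arrays on a log axis (x axis). Each point is 1 gene: 42 large subunit genes (blue), 23 small subunit genes (orange) and 7961 other genes (grey), of which 224 lie beyond the y axis. Most members sit at the bright end between 0 and 0.5, where other genes also lie mostly above 0.

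Within the family, brighter members stood higher. Across the 61 members with a mean signal of at least 1000, the Pearson correlation of log2 signal with the mean log2 ratio of days 2, 4 and 6 was 0.67 and the Spearman correlation 0.55. Both are descriptions across genes that share the same 4 arrays, and members are not replicates.

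Large and small subunit genes had medians of like size. The large subunit medians were 0.15, 0.16 and 0.27 at days 2, 4 and 6, and the small subunit medians 0.19, 0.16 and 0.28. Large minus small was -0.043, -0.0062 and -0.013, and the SD among genes of a subunit was 0.077 to 0.24. The summed signal of the large subunit over that of the small was 1.76, 1.73, 1.74 and 1.75 at days 0, 2, 4 and 6. Its level depends on how bright each probe set is, so only its change between arrays is read, and its highest and lowest values over the 4 arrays differed by 0.025. No test between subunits was made, as genes are not replicates of a day.

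**Figure D2:**
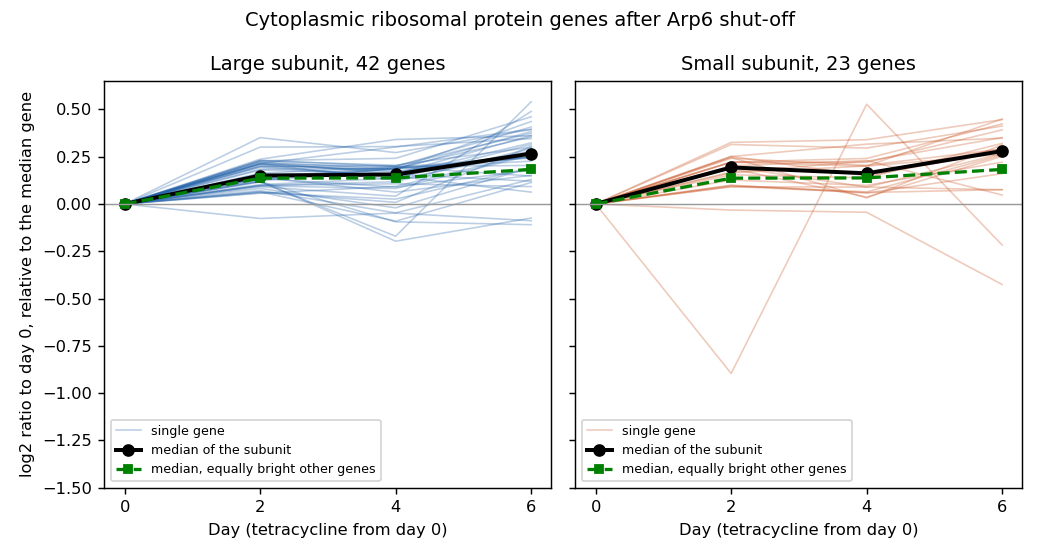
Log2 ratio to day 0, relative to the median gene (y axis), at days 0, 2, 4 and 6 (x axis) for 42 large subunit genes (left) and 23 small subunit genes (right). Thin lines are single genes and the black line the subunit's median. The green dashed line, labelled equally bright, is the median of 106 other genes with a mean signal of at least 4304. As a set these other genes are dimmer than the members. Both black lines end near 0.27 and 0.28, above the green line at 0.18, and the line reaching -0.90 at day 2 on the right is the dim RPS13.

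In the small subunit, RPS6 had the highest mean ratio of the family, 0.37 over days 2, 4 and 6. RPS6 lies at the foot of the subunit and is the protein that S6 kinases phosphorylate downstream of mTOR. After scaling, its signals were 6944, 8631, 8809 and 9397 at days 0, 2, 4 and 6, lowest at day 0 and highest at day 6. RPS24, the other measured member of the group of the body and foot, is a gene mutated in human Diamond-Blackfan anaemia. Its ratios were smaller, 0.097, 0.064 and 0.26, from signals of 8155, 8651, 8544 and 9693.

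The mRNA enters the small subunit between RPS2 and RPS3, and RPS23 and RPS15 line the decoding centre and the neighbouring head. These 4 measured members of the entry and decoding group had medians of 0.18, 0.21 and 0.38. All 4 lay above the median gene at each day, as did all 21 small subunit members with a mean signal of at least 1000. RPS3 had signals of 6549, 8078, 8057 and 8656, the second highest mean ratio of the family at 0.34. RPS2 had signals of 9547, 10614, 10999 and 12948 and stood out at day 6, where its ratio of 0.45 was the highest of the small subunit. RPS15 had signals of 7643, 8517, 8960 and 9684, after scaling higher on each array than on the array before it. Its deposited values had the reverse order, 8894, 8858, 8798 and 8149. RPS23 had signals of 7418, 8431, 7909 and 8857, with day 4 between day 0 and day 2.

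Where the mRNA leaves, RPS14, RPS21, RPS26 and RPS28 form part of the platform and exit channel. Their medians were 0.21, 0.20 and 0.28, close to those of the subunit as a whole. RPS14 had signals of 8211, 9627, 9483 and 9977, RPS21 of 9650, 10651, 10647 and 11973, and RPS26 of 7009, 8102, 8070 and 8352. In all of these day 0 was the lowest array and day 6 the highest after scaling, while day 6 was the lowest in the deposited values. RPS28 differed at day 6: its signals were 4832, 5510, 5681 and 4960, and its ratio of 0.048 was the lowest of the bright small subunit genes there.

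Other small subunit members at the high end were RPS4Y1 and RPS3A. RPS4Y1, which RefSeq lists with the synonyms RPS4 and RPS4X and so carries the symbol of a human Y-linked copy on chicken chromosome 4, had signals of 9079, 10713, 11331 and 11479 and a mean ratio of 0.31. RPS3A, a platform protein, had signals of 8458, 9781, 10017 and 11266 and a mean ratio of 0.30. RPS12 and RPS29, which belong to the head and its beak, stood at the low end. RPS12 had signals of 6762, 7142, 7213 and 7078 and RPS29 of 7017, 7422, 7335 and 7346, with mean ratios of 0.085 and 0.077. After scaling, both stayed almost level over days 2, 4 and 6.

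RPS13, a protein of the small subunit's body, cannot be read here as a bright member. Its signals were 62.2, 33.2, 89.9 and 53.2, and its ratios of -0.90, 0.53 and -0.22 went both ways. The second brightest probe set was as dim, with signals of 54.2, 52.8, 34.6 and 58.8, and it went the other way at days 4 and 6. A further probe set assigned to RPS13 together with another gene was not used.

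**Figure D3:**
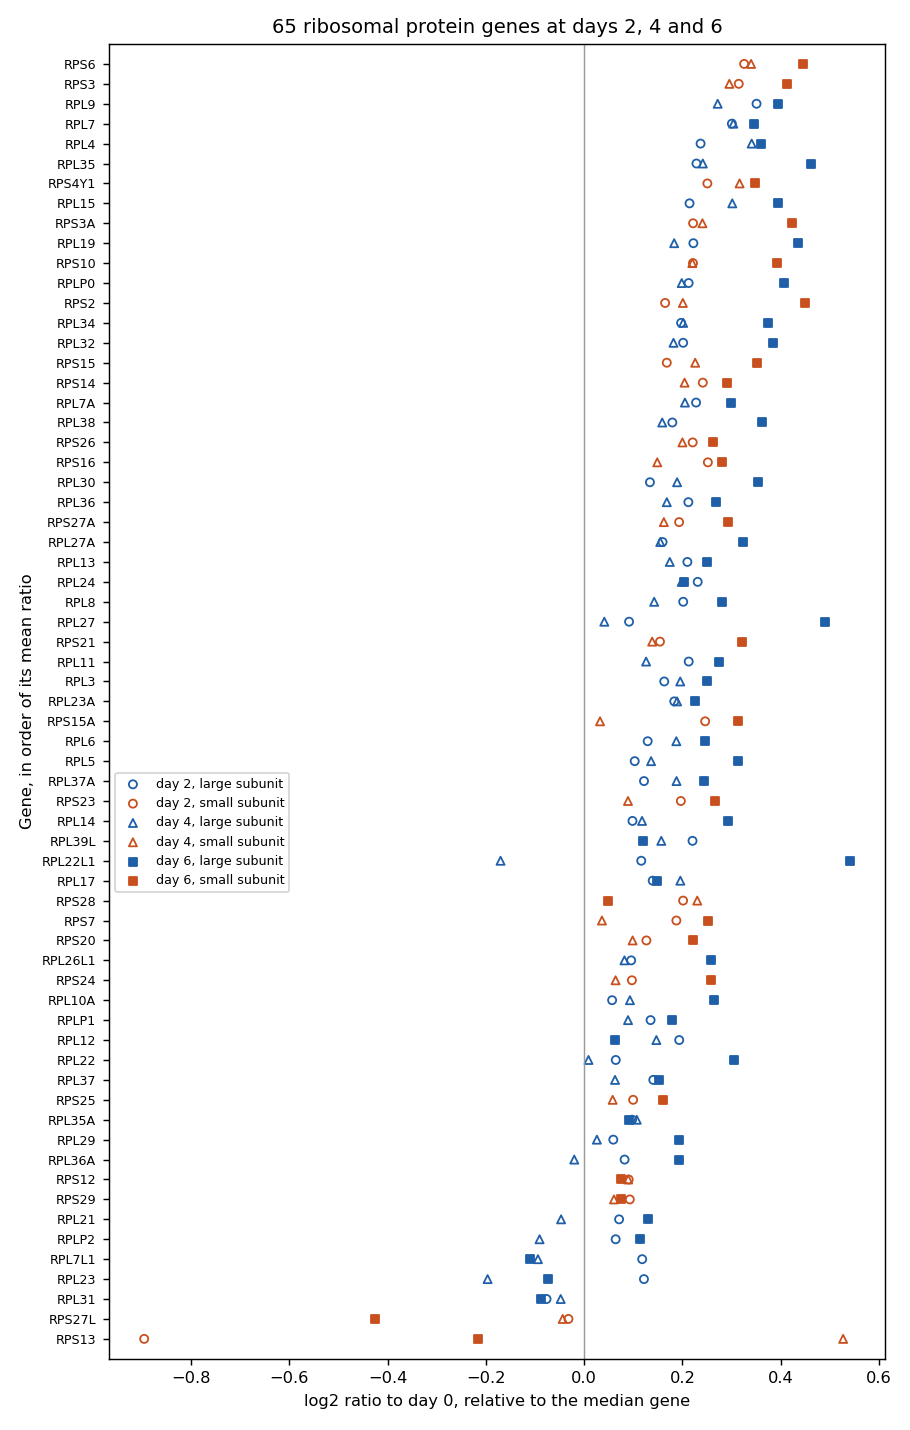
Log2 ratios to day 0, relative to the median gene (x axis), of 65 ribosomal protein genes (y axis, in order of the mean ratio) at day 2 (open circles), day 4 (open triangles) and day 6 (filled squares), in blue for the large and orange for the small subunit. The day 6 square is the rightmost point for most genes, the upper end runs to RPS6 and RPS3, and the dim RPS13 at the bottom spreads from -0.90 to 0.53.

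In the large subunit, the highest mean ratios were those of RPL9, RPL7, RPL4 and RPL35. RPL9, which lies near the site where elongation factors bind, had signals of 8242, 10424, 9973 and 10757 and a mean ratio of 0.34. RPL7, which also has a paralog on the array, had signals of 6706, 8191, 8295 and 8466 and a mean ratio of 0.32. Both were already near their day 6 level at day 2.

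RPL4 reaches into the peptide exit tunnel and narrows it, and RPL17, RPL19, RPL23A, RPL31 and RPL35 surround its opening, where RPL23A and RPL35 receive factors that act on the new chain. The medians of these 6 measured members of the tunnel group were 0.20, 0.19 and 0.29. At each day 5 of 6 lay above the median gene, beside 41, 35 and 39 of all 42 large subunit members. RPL4 had signals of 7732, 9038, 9817 and 9862, with most of its difference from day 0 present by day 4. RPL35 had signals of 10021, 11645, 11875 and 13700 and RPL19 of 9088, 10515, 10343 and 12212, both highest at day 6. RPL23A had signals of 7894, 8890, 9020 and 9174, and RPL17 of 6716, 7337, 7710 and 7392, highest at day 4.

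RPL31 was the member of the tunnel group below the median gene. Its brightest probe set gave 224.2, 210.8, 217.4 and 209.4, under the limit of 1000 for a bright signal, and its ratios were -0.077, -0.048 and -0.088. All 4 arrays lay within a narrow range and above background.

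The P stalk recruits the GTP-binding translation factors and consists of RPLP0, which anchors it, the acidic proteins RPLP1 and RPLP2, and RPL12 at its base. Its medians were 0.16, 0.12 and 0.15 at days 2, 4 and 6, and its members parted at day 6. RPLP0 had signals of 8450, 9711, 9720 and 11130 and a ratio of 0.41 at day 6. RPLP1 had signals of 7999, 8712, 8530 and 8993, RPLP2 of 2917, 3024, 2745 and 3135, and RPL12 of 7465, 8466, 8285 and 7745. Their ratios at day 6 were 0.18, 0.11 and 0.063, so that the anchor stood above the other stalk members on that array. Gaps of like size occurred there within single genes. The brightest and second brightest probe sets of RPL38 differed by 0.34 at day 6 and those of RPL29 by 0.28. Other members with a bright second probe set differed less.

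RPL5 and RPL11 bind the 5S ribosomal RNA and, when ribosome assembly is disturbed in mammals, also bind the p53 regulator MDM2. RPL5 had signals of 6215, 6619, 6846 and 7674, and RPL11 of 7770, 8930, 8499 and 9332. Their ratios at day 6 were 0.31 and 0.27, close to the family median. The 11 measured genes whose human counterparts are mutated in Diamond-Blackfan anaemia, a failure of red cell production, had medians of 0.19, 0.13 and 0.26. With the scaling used here all 11 lay above the median gene at each day, beside 62, 57 and 60 of all 65 members. Among the 11, RPS24 and RPS29 had mean ratios of -0.057 and -0.081 under quantile normalization. Relative to the 106 other bright genes they had -0.012 and -0.076.

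At the low end of the large subunit, RPL23 sits on the face that meets the small subunit. Its signals of 4490, 4845, 3928 and 4237 were lower at days 4 and 6 than at day 0, with ratios of 0.12, -0.20 and -0.074. RPLP2, described with the stalk, had the next lowest mean ratio among the large subunit members that are neither dim nor paralogs, 0.029. RPL27, a gene mutated in human Diamond-Blackfan anaemia, had signals of 7118, 7521, 7340 and 9925. It was level to day 4 and stood at 0.49 at day 6, the highest ratio of any bright member there.

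Several members are paralogs, second genes for a similar protein. RPL22L1 had the widest range in the large subunit, with signals of 615.7, 661.9, 548.5 and 889.5 and ratios of 0.12, -0.17 and 0.54. RPL22, whose protein represses RPL22L1 in mouse, had signals of 6672, 6918, 6729 and 8185 and ratios of 0.064, 0.0088 and 0.30. Both were thus highest at day 6 and closest to or below their day 0 level at day 4.

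RPL7L1, a nucleolar relative of RPL7 found on precursors of the large subunit, had signals of 2188, 2355, 2055 and 2015 and ratios of 0.12, -0.094 and -0.11, while RPL7 had 0.30, 0.30 and 0.35. The direction of the paralog at days 4 and 6 was opposite to that of RPL7. RPS27L, whose human counterpart is a target of p53, had signals of 914.5, 887.1, 889.3 and 676.4. It was level to day 4 and had the lowest ratio of the family at day 6, -0.43. RPS27, the gene it resembles, was not analysed here.

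RPL3L, known in mammals as the form of RPL3 found in heart and skeletal muscle, was the member not kept by the filter. Its signals were 47.4, 30.0, 7.55 and 4.94, below background at days 4 and 6, so no ratio is given. RPL3, which shapes the peptidyl transferase centre, had signals of 6954, 7721, 7982 and 8211. RPL26L1 and RPL39L are the symbols under which RefSeq lists the synonyms RPL26 and RPL39, so neither could be set beside a separate parent gene. RPL26L1 had ratios of 0.096, 0.082 and 0.26, and RPL39L of 0.22, 0.16 and 0.12.

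RPSA itself appeared only under RPSAP58, to which RefSeq gives the synonym RPSA, and so it was not a member by the rule. Its 3 bright probe sets had ratios of 0.26, 0.31 and 0.36, of 0.42, 0.40 and 0.40, and of 0.28, 0.18 and 0.37 at days 2, 4 and 6. Each of these values lay above the family's median of its day. The dimmer probe sets of RPSAP58 had ratios of 0.28, 0.86 and 0.63, and of 0.020, 0.46 and 0.62. The 0.020 at day 2 lay below the family's median.

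For 30 members a second kept probe set gave another reading of the same gene. In 14 members the second brightest probe set also had a mean signal of at least 1000, and the mean ratios of the 2 probe sets differed by a median of 0.040 and by 0.255 at most, in RPL29. The SD of that difference over the 14 members was 0.11. Between the 61 bright members the SD of the mean ratio was 0.087. These 2 SDs are not of a like kind, as the first is of differences and the second of single values. The quartiles of the mean ratio over the bright members were 0.14 and 0.25, closer together than the 2 probe sets of RPL29. Small distances between bright members are thus within what probe sets of the same gene can show. In RPL4 the pair gave mean ratios of 0.31 and 0.29 and in RPL19 of 0.28 and 0.27, while in RPL29 it gave 0.093 and -0.16. For RPL29 the first probe set gave 5696, 5886, 5813 and 6465 and the second 6484, 6792, 4654 and 6073, apart mainly at day 4.

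In 7 of the 30 members with a second kept probe set, the mean ratios differed by more than 0.5: RPL7L1, RPL12, RPL15, RPL22L1, RPL23, RPS12 and RPS24. In each of them the second probe set was dim. RPL15, a core protein of the large subunit, had 7995, 9200, 9876 and 10443 in its brightest probe set and 44.6, 74.7, 117.3 and 94.1 in the second. RPL23 had 30.0, 82.1, 78.1 and 73.7 in its second probe set, higher after day 0, while its bright probe set was lower at days 4 and 6. RPL12 had 153.7, 112.8, 60.9 and 77.7 in the second probe set, lower after day 0.

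By brightness, the 41 member probe sets at or above 8000 had medians of 0.20, 0.18 and 0.29, and none lay below the median gene at any day. The 37 probe sets between 1000 and 8000 had 0.14, 0.11 and 0.25. Below that the family's pattern was not seen: 23 probe sets between 100 and 1000 had medians of 0.051, -0.16 and -0.22, and 21 below 100 had -0.27, 0.036 and 0.060. The 23 probe sets of other genes at or above 8000 had 0.18, 0.18 and 0.37. They include the bright probe sets of RPSAP58, which stands for RPSA.

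**Figure D4:**
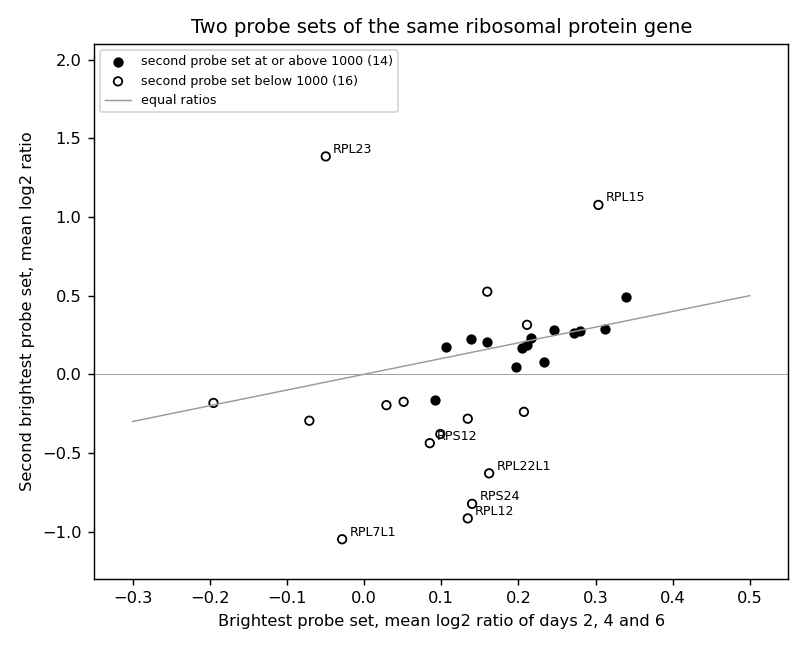
Mean log2 ratio of days 2, 4 and 6, relative to the median gene, in the second brightest probe set (y axis) against that in the brightest (x axis) for 30 members. Filled points are the 14 whose second probe set has a mean signal of at least 1000, open points the 16 below it, and the grey line marks equal ratios. Filled points lie near the line, and the 7 labelled genes, which differ by more than 0.5, all have a dim second probe set.

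Other genes of protein synthesis did not all stand where the ribosomal protein genes did. The 14 translation factors and related genes whose mRNAs carry a TOP motif in mammals had medians of 0.13, 0.094 and 0.15, with 13, 8 and 10 of 14 above the median gene. The highest were EIF3H, a subunit of the initiation factor eIF3, with signals of 2875, 3423, 3566 and 4079, and EEF1A1, which brings aminoacyl tRNA to the ribosome, with 8524, 9924, 10228 and 11145. EEF1G, a subunit of the factor that recharges EEF1A, was the lowest, with 1982, 1444, 1333 and 1256, the reverse order of days. HNRNPA1, an RNA-binding protein, had 2676, 3325, 1922 and 2158. RACK1, a scaffold on the head of the small subunit, had 7128, 7814, 7678 and 7932, with ratios of 0.14, 0.10 and 0.16.

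The TOP control list of 12 genes, which covers TOP mRNAs, mTOR signalling, RPS6 kinases and MYC, had medians of 0.042, -0.072 and 0.12. RPS6KB1, the kinase that phosphorylates RPS6, had signals of 447.7, 566.3, 675.1 and 669.2 and ratios of 0.35, 0.59 and 0.59. RPS6KA1, a kinase of the MAP kinase pathway that also phosphorylates RPS6, had 153.0, 108.9, 87.7 and 106.9, below day 0 on each later array. The brightest probe set of MTOR gave 174.0, 155.8, 65.1 and 133.6, and its second probe set had a mean ratio of 0.18 against -0.65 in the first. TSC2, an inhibitor of mTOR signalling, was below background at days 0 and 4.

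The 44 ribosome assembly factors had medians of 0.039, -0.055 and -0.044, with 25, 19 and 17 of 44 above the median gene. BYSL, which acts on the small subunit precursor, had 584.8, 769.7, 851.8 and 855.3 and the highest mean ratio, 0.50. NOC3L, a nucleolar factor of the large subunit, had 532.6, 636.4, 720.0 and 742.4. PES1, a factor of large subunit assembly, had 1866, 1632, 1368 and 1259 with a mean ratio of -0.40, but its second probe set had 0.18. LTV1, an export factor of the small subunit, was dim, with 70.9, 57.8, 46.3 and 58.2. The 64 mitochondrial ribosomal protein genes had medians of -0.012, -0.022 and -0.15, the 10 import factors and chaperones of ribosomal proteins 0.062, 0.014 and -0.081, and the 9 genes of RNA polymerase I 0.15, -0.094 and 0.15. At day 6 the cytoplasmic family's median of 0.27 was higher than that of each of these lists. The lists also differed in brightness, with a median signal of 8396 for the members, 4872 for the translation factors, 1624 for import factors and chaperones, and 487.3 to 939.3 for the others. The part of brightness in this order was not tested.

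**Figure D5:**
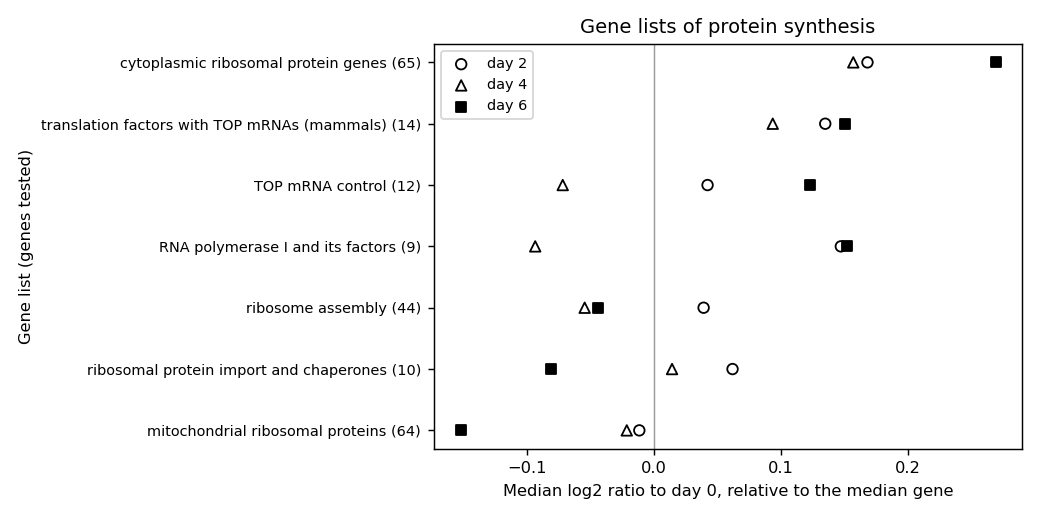
Median log2 ratio to day 0, relative to the median gene (x axis), at day 2 (open circles), day 4 (open triangles) and day 6 (filled squares) for 7 gene lists of protein synthesis with the number of genes tested (y axis). The cytoplasmic ribosomal protein genes end at 0.27, the translation factors at 0.15 and the mitochondrial ribosomal protein genes at -0.15.

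The members lay on 27 chromosomes in the RefSeq table, all 65 on a numbered chromosome or Z. Of the members, 41.5% were on chromosomes 1 to 5, against 43.2% of all genes tested, and 41.5% on chromosomes 11 and up, against 36.4%. Their medians at day 6 were 0.25 on chromosomes 1 to 5 (27 genes), 0.26 on chromosomes 6 to 10 (7 genes), 0.29 on chromosomes 11 and up (27 genes) and 0.21 on Z (4 genes: RPL17, RPL37, RPS6 and RPS23). All genes tested in the same classes had 0.013, 0.014, -0.033 and 0.10. The family thus lay above the class median in each class. The genes were short, with a median length of 3303 bases against 16427 for all genes with a length.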

How the data were processed

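Biotin-labelled RNA from 4 cultures was read on Affymetrix Chicken Genome arrays, 1 per day, per the labels. The authors deposited linear intensities, 1 for each probe set on each array, from GeneChip Operating Software 1.3 per the series' design text. How signals were computed or scaled is not given in the sources used here.

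After removal of 96 controls from 38535 probe sets, those with a mean log2 intensity at or above the overall median (29.1) stayed, 16658 in all. Scaling brought the arrays to a common median over these (factors 0.859, 0.962, 1.02 and 1.19 in order of day), and signals under the 40th percentile (19.4) were raised to it. The brightest probe set stood for a gene, giving 8026. The median log2 ratio of all genes was then subtracted from each ratio. The background of an array is the 95th percentile of 59 unspiked controls, 25.4, 24.9, 32.1 and 45.9. Precision is limited by the number of arrays, and with 1 array per day no test was run. The ratio step was tested on simulated data with a single factor per array and the same shift for all probe sets of a subunit. These data held no difference by brightness, so they could not test its part in the results. Python 3.11.15, numpy 2.4.6, pandas 2.3.3 and matplotlib 3.10.9 were used. Symbols came from the platform annotation, and chromosomes, lengths and synonyms from RefSeq (assembly GRCg7b).

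Members named were the 4 highest, the 4 lowest and the 2 widest-ranging of each subunit, paralogs, members whose probe sets differed by over 0.5, the member not kept, and those of the structural groups. Of each related list the 2 highest and 2 lowest by mean ratio were named. The members, lists and rules were chosen with earlier results of these data known. The limit of 1000 for a bright signal was chosen after the values were seen. Alternatives were other scalings, filters, floors, probe sets, a 1.5-fold threshold and other sets of members or reference genes.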

Additional observations from a re-analysis of the deposited data

How the results depend on the processing

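No paired analysis was possible because each day has 1 array, and for the same reason no array could be left out within a day. All 19 main results stayed the same with scaling to the 75th percentile or the spike-in controls, no scaling, no floor, or RPS19BP1 as a member. The same means moved by under 0.1 on the log2 scale or 1.5 times for a count. The scalings among these use a single factor per array. That factor cancels on subtracting the median gene and in ratios within an array, so these scalings could hardly move a result. Large minus small lay so near 0 at days 2 and 4 that its sign differed between settings. The settings with RPS19BP1, without dim members and relative to the 106 other bright genes were chosen after seeing the data.

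Quantile normalization, which gives all arrays one distribution of signals, lowered the family's medians to 0.018, 0.012 and 0.030 at days 2, 4 and 6, and the counts of members 25% higher to 0, 1 and 1, with 2 lower at day 6. It turned the mean ratios of RPLP2 (-0.022), RPS29 (-0.081), RPS12 (-0.054), RPL26L1 (-0.079), RPL39L (-0.013), RPL12 (-0.027), RPS24 (-0.057) and RACK1 (-0.043), the day 4 medians of the TOP translation factors (-0.017) and of the mitochondrial list (0.019), and the distances from the family of RPL27 (-0.014) and RPL22L1 (0.17).

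Relative to the 106 other genes with a mean signal of at least 4304 the medians were 0.032, 0.019 and 0.086. The counts higher were then 0, 1 and 1, those lower 1 at day 4 and 2 at day 6, and 1 member differed 2-fold at day 2. The mean ratios of RPLP2 (-0.12), RPS29 (-0.076), RPS12 (-0.067), RPL22 (-0.027), RPL26L1 (-0.0072), RPL12 (-0.018) and RPS24 (-0.012) turned.

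Without a filter the median gene is a dim one, and the family's medians were 0.28, -0.012 and 0.055, reversed at day 4. The counts higher were 18, 1 and 1, those lower 2, 3 and 3, and 1 member differed 2-fold at day 4 and 1 at day 6. RPLP2 (-0.061), RPS29 (-0.014) and RPS12 (-0.0052) turned, as did the medians of the TOP translation factors (-0.074 at day 4, -0.062 at day 6), TOP control (-0.090 at day 6), RNA polymerase I (-0.033 at day 6), import (-0.15 at day 4) and mitochondrial (0.094 at day 2) lists.

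The mean of all kept probe sets brought in the dim ones. It turned large minus small to 0.0071 at day 2 and 0.019 at day 4, lowered the subunit signal ratio to 1.57, 1.54, 1.57 and 1.56, and gave 4 members higher at day 2 and 4, 5 and 4 lower. The mean ratios of RPL23 (0.65), RPLP2 (-0.11), RPL22L1 (-0.26), RPS12 (-0.15), RPL12 (-0.41), RPS24 (-0.36), MTOR (0.27) and TAF1D (0.036) turned. So did the distance of RPL23 from the family (0.47), that of the body and foot group (-0.19), and the medians of the TOP translation factors (-0.13 at day 4), TOP control (0.052 at day 4), RNA polymerase I (0.072 at day 4) and import (-0.074 at day 2, -0.19 at day 4) lists.

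The second brightest probe set gave family medians of 0.032 at day 4 and 0.058 at day 6, with 5 members higher at day 6, 8, 8 and 9 lower, and 2, 3 and 4 that differed 2-fold. Large minus small was 0.0097, 0.013 and -0.17, and the signal ratio 2.02, 2.01, 2.06 and 1.94. The mean ratios of RPL23 (1.32), RPLP2 (-0.27), RPL27 (-0.31), RPL22L1 (-0.70), RPS12 (-0.51), RPL12 (-0.99), RPS24 (-0.89), IPO5 (-0.13), MTOR (0.11) and PES1 (0.11) turned. So did the distances of RPL23 (1.26) and RPL27 (-0.36), and the medians of the TOP translation factors (-0.51, -0.80 and -0.56), RNA polymerase I (-0.12 at day 6), import (-0.22 at day 2, -0.27 at day 4) and mitochondrial (0.032 at day 2) lists.

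A filter at the 75th percentile left 1 member higher and 0 lower at day 2, and a floor at the 60th percentile 1 higher at day 2. At 1.5-fold, 0 were higher at each day and 0 lower at day 6. Without RPS13, RPL31 and the dim paralogs 0 were lower at days 2 and 6. Where a result moved, the cause was not tested. Some settings use fewer genes or dimmer probe sets. RPS13 had a mean signal of 56.0, close to background, which limits its ratios.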

Other observations

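Among genes that serve the ribosome but are not part of it, some single members lay further from their day 0 level than the bright ribosomal protein genes did, mostly at low signal. TNPO1, an import receptor, had signals of 127.2, 181.6, 304.4 and 179.4 at days 0, 2, 4 and 6, and its second probe set stood above the median gene as well, with a mean ratio of 0.87 against 0.76. IPO5, another import receptor, had 1481, 1669, 1871 and 1918, while its second probe set had a mean ratio of -0.059. BCCIP, which in yeast and human chaperones RPL23, had 2007, 1863, 1675 and 1466, and IPO9, an import receptor, had 771.2, 657.3, 768.4 and 577.0. RPL23 itself was among the lowest members, with a mean ratio of -0.050.

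Of mitochondrial ribosomal protein genes, MRPS14 had 261.6, 197.4, 139.8 and 95.2 and MRPL46 had 532.7, 395.5, 158.0 and 344.7, the lowest mean ratios of their list. MRPL21 was below background at day 0 and had 47.0, 82.4 and 52.1 afterwards, and MRPL1 had 26.8, 28.6, 53.4 and 116.5. TAF1B, a subunit of the RNA polymerase I initiation factor, had 351.2, 280.1, 183.4 and 182.6, and TAF1D had 675.9, 782.1, 590.3 and 502.1. POLR1B and POLR1D, subunits of the polymerase, were below background at day 0, and POLR1D also at day 6. None of these differences has a replicate.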
